A study of Mus musculus with 15 samples.

Results

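CD8+ T cells activated through their antigen receptor (TCR) for 24 h with IC87114 (PI3Kdi), an inhibitor selective for the PI3K catalytic subunit p110δ, were compared with cells activated without it. The members are 6 of the 15 RNA-seq libraries of the series: the 3 libraries of TCR activated cells and the 3 libraries of cells TCR activated in the presence of PI3Kdi, each group with biological replicates 1 to 3. They were taken by their sample labels from the expression table of naïve and TCR activated cells, in which 11262 mRNA are listed. All mice carried the LCMV-P14 TCR transgene, so that their CD8+ T cells recognise the lymphocytic choriomeningitis virus peptide gp33-41, and were females of 9 to 13 weeks. Lymph node cells of 3 mice were pooled for each replicate and the pool was split between the naïve, TCR and TCR + PI3Kdi conditions. Both activated groups were cultured for 24 h with IL-12 (2 ng/ml), IL-2 (20 ng/ml) and the peptide (100 ng/ml), and the inhibitor group also with IC87114 (10 µM). The study's methods name DMSO as the vehicle control. The 3 naïve libraries, made from cells sorted ex vivo, are given here as a reference level. A single compound, dose and time were measured, IL-2 and IL-12 were present in both activated groups, and whole lymph node suspensions were stimulated before live CD8+ cells were sorted.

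p110δ is the class I PI3K catalytic subunit that predominates in lymphocytes. It makes the membrane lipid PIP3 after antigen receptor, costimulatory receptor and cytokine receptor engagement, and PIP3 recruits kinases such as AKT. AKT in turn phosphorylates FOXO1 and FOXO3 and keeps these transcription factors out of the nucleus. In T cells FOXO1 is known for maintaining genes of naïve cells, among them the transcription factor Klf2 and the IL-7 receptor chain Il7r.

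Expression is given as FPKM, which is scaled for exon length and library size. The lowest estimated library size among the 6 activated libraries was 11200000 reads and the highest 14500000, as estimated from the spacing of low FPKM values. Over all mRNA the libraries of one group correlated with r from 0.983 to 0.994, and libraries of different groups with r from 0.965 to 0.978. All 8 CD8 T cell markers were in the table, and their summed level was 947 to 1100 FPKM in the TCR libraries and 1187 to 1354 FPKM with PI3Kdi. B cell markers summed to 4.92 to 7.82 FPKM without and 3.33 to 4.63 FPKM with PI3Kdi (5 of 10 in the table), and macrophage markers to 2.48 to 5.34 and 4.04 to 4.91 FPKM (3 of 11). The CD8 T cell and macrophage sums had higher means with PI3Kdi, the latter with overlapping groups. Further sums also had higher means with PI3Kdi: plasma cell markers at 46.9 to 76.8 FPKM without and 85 to 107 FPKM with it (2 of 4, mostly Xbp1), dendritic cell markers at 147 to 161 and 166 to 235 FPKM (3 of 8, mostly Ccr7, which T cells also express), the single stromal and endothelial marker in the table, Pecam1, at 2.25 to 3.49 and 4.73 to 8.2 FPKM (1 of 8), and the single neutrophil marker, Cxcr2, at 0.12 to 0.9 and 0.9 to 1.41 FPKM (1 of 6), where the groups met. None of 6 erythroid markers was in the table. Of 8 NK cell markers only Eomes, which CD8+ T cells also express, was in the table. In these bulk libraries a smaller number of expressing cells and less mRNA in each cell cannot be told apart.

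A call required an adjusted p under 0.05 in limma and more than a 2-fold difference between TCR + PI3Kdi and TCR on the log2(FPKM + 0.1) scale, which understates the fold of low mRNA. Values after ± are standard errors of the log2 fold change, with 3 libraries in each group. Levels are listed for replicates 1 to 3 in turn, and where values are set against each other the TCR libraries come first. By this rule 342 mRNA were higher and 237 lower with PI3Kdi, 3.04% and 2.1% of the mRNA tested, or 5.14% in all. The counts of called members in each gene list below are to be read beside these shares. The falls were the larger: 72 of the lower mRNA and 46 of the higher mRNA differed by more than 4-fold, and 23 and 10 by more than 8-fold. The median log2 fold change was -1.53 for lower and 1.35 for higher mRNA. All 237 lower mRNA fell in each of the 3 same-numbered pairs, as did 341 of the 342 higher mRNA in the other direction. The 3 libraries of each group did not overlap for 226 of the lower and 337 of the higher mRNA. At this group size such separation also occurred in 36.7% of all mRNA, 18.6% lower and 18.1% higher with PI3Kdi. The median over all 11262 mRNA was -0.008, and 94.3% of mRNA differed by less than 2-fold. An unadjusted limma p under 0.05 was reached by 3544 of the 11262 mRNA, and an adjusted p under 0.05 by 1975. The median standard error was 0.28 for mRNA under 1 FPKM and 0.11 for mRNA of 10 FPKM or more, so a difference of a given size was less precise in low mRNA. Without replicate 2 in every group the numbers dropped to 197 higher and 126 lower, 311 of them shared with the full data.

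**Figure D1:**
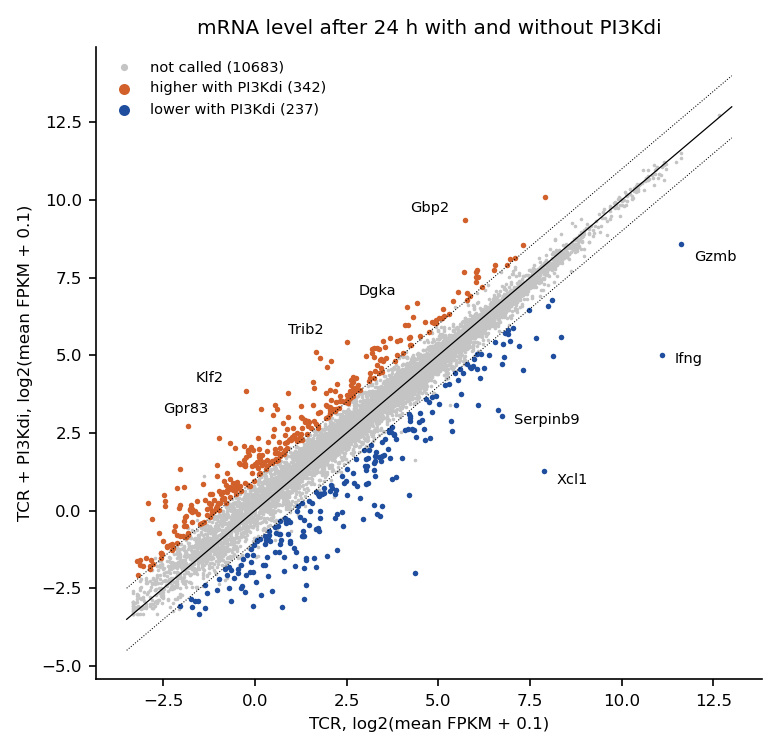
Each point is 1 of 11262 mRNA, with the mean of the 3 TCR libraries on the x axis and the mean of the 3 TCR + PI3Kdi libraries on the y axis, both as log2(FPKM + 0.1). The solid line marks equal levels and the dotted lines a 2-fold difference. The 342 mRNA called higher (orange) mostly lie above the band and the 237 called lower (blue) below it, with Ifng and Gzmb the called mRNA farthest to the right.

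Of the 41 gene lists examined, chemokines had the lowest median. Chemokines are small secreted proteins that attract other immune cells, and 6 of the 8 chemokine genes in the table were lower with PI3Kdi while none was higher (median log2 fold change -2.23). Xcl1 (mm10, chr1:164931644-164935522), a chemokine made by activated CD8+ T cells and NK cells that attracts cross-presenting dendritic cells, was at 178, 267 and 265 FPKM in the TCR libraries and at 3.04, 2.01 and 1.86 FPKM with PI3Kdi (log2 fold change -6.63 ± 0.47, adjusted p = 1.1e-05). Every inhibitor library was thus far below every TCR library. Ccl3, which attracts cells through the receptor CCR1, was at 293, 312 and 371 FPKM without and 64.7, 50.6 and 28.6 FPKM with PI3Kdi (log2 fold change -2.83 ± 0.31, adjusted p = 0.00016). The related Ccl4 fell from 198, 275 and 345 to 123, 127 and 80 FPKM (log2 fold change -1.31 ± 0.32, adjusted p = 0.018). Its log2 fold change was -0.91 without replicate 3, and its adjusted p was 0.095 without replicate 2. Ccl9, at 1.28, 1.87 and 1.59 FPKM without PI3Kdi, was at 0.02, 0.03 and 0 FPKM with it (log2 fold change -3.84 ± 0.24, adjusted p = 4.6e-06). Cxcl10, an interferon-inducible ligand of CXCR3, was called lower (3.89, 6.73 and 17.6 against 0.66, 1.13 and 5.31 FPKM, log2 fold change -2.19 ± 0.68, adjusted p = 0.048) although the groups overlapped, and it lost the call without replicate 1 (adjusted p = 0.11) and without replicate 2 (adjusted p = 0.3). Ccl22 was lower as well (log2 fold change -2.26 ± 0.44, adjusted p = 0.0057; adjusted p = 0.1 without replicate 2), and Ccl5, with a mean of 3.71 FPKM without and 2.85 FPKM with PI3Kdi, was not called. Without replicate 2, 3 of the 8 chemokine genes were called lower.

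Among 31 cytokine and TNF family ligand genes 15 were lower and 3 higher (median log2 fold change -1.09). Ifng (mm10, chr10:118441046-118445894), which encodes the effector cytokine interferon-γ, was at 1949.8, 2290.0 and 2299 FPKM in the TCR libraries and 30.9, 27.5 and 38.8 FPKM with PI3Kdi. The difference was 67.5-fold (log2 fold change -6.08 ± 0.16, adjusted p = 5.9e-09), and the inhibitor libraries still exceeded the naïve mean of 0.0867 FPKM. In the annotation used here Ifng shares exon sequence with the gene model Gm49751 on the same strand. Il3, a growth factor for myeloid progenitors, was near 0 in all inhibitor libraries (0.26, 0.18 and 0 FPKM, against 26.3, 26.2 and 9.09 FPKM, log2 fold change -6.42 ± 0.49, adjusted p = 1.5e-05). Lta, encoding lymphotoxin-α, went from 290.2, 235 and 306 to 20.8, 28.9 and 45.4 FPKM (log2 fold change -3.19 ± 0.25, adjusted p = 1.5e-05). The groups did not overlap, and every inhibitor library was above the naïve mean of 9.8 FPKM. Il2 was called lower (4.15, 9.35 and 18.8 against 2.46, 3.2 and 3.05 FPKM, log2 fold change -1.61 ± 0.41, adjusted p = 0.021), but not without replicate 2 (adjusted p = 0.19) or replicate 3 (adjusted p = 0.088). Exogenous IL-2 was present in both groups.

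Not all cytokine mRNA moved that way. Il16, made by resting lymphocytes and at 96.6 FPKM in naïve cells, was at 5.29, 3.61 and 4.28 FPKM in TCR libraries and 11.9, 12.9 and 17.7 FPKM with PI3Kdi (log2 fold change 1.66 ± 0.16, adjusted p = 6.8e-05). The follicular helper cytokine Il21, listed at 0 in naïve cells, was higher with PI3Kdi (7.53, 6.05 and 4.24 against 21.5, 13.1 and 8.57 FPKM, log2 fold change 1.20 ± 0.30, adjusted p = 0.02), although its adjusted p was 0.055 without replicate 1 and 0.19 without replicate 2. Tnfsf8, the ligand of CD30, was also called higher (log2 fold change 1.11 ± 0.27, adjusted p = 0.016), with an adjusted p of 0.12 without replicate 1 and 0.18 without replicate 2.

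The cytotoxic machinery was lower in part. Of 18 granule and cytotoxicity genes, 6 were lower and none was higher (median log2 fold change -0.23). Gzmb, the granzyme B protease that triggers apoptosis in target cells, was at 4049, 2904 and 2488 FPKM in TCR libraries and at 535, 332 and 271 FPKM with PI3Kdi, an 8.47-fold difference (log2 fold change -3.08 ± 0.40, adjusted p = 0.00047). With PI3Kdi it was still abundant, against 0.407 FPKM in naïve cells. Serpinb9, an inhibitor of granzyme B that protects the killer cell itself, fell from 86.1, 135 and 95.5 to 9.33, 8.56 and 6.62 FPKM (log2 fold change -3.66 ± 0.18, adjusted p = 1.4e-06), next to the naïve mean of 9.93 FPKM. Serpinb6b, of the same clade B serpin family, fell from 85, 133 and 78 to 10.4, 10.4 and 7.12 FPKM (log2 fold change -3.37 ± 0.22, adjusted p = 6.6e-06), beside 11.7 FPKM in naïve cells. Both serpins were below their naïve mean in all 3 inhibitor libraries and above it in all 3 TCR libraries. Prf1, the pore-forming protein perforin, was at 27.1, 18.1 and 9.02 FPKM without and 8.85, 6.32 and 3.03 FPKM with PI3Kdi (log2 fold change -1.55 ± 0.40, adjusted p = 0.022), a smaller difference whose adjusted p was 0.19 without replicate 2. Stx11, a syntaxin needed for granule release, fell by 1.20 on the log2 scale (SE 0.16 on the log2 scale, adjusted p = 0.00066). Granzyme and serpin genes are families of similar sequence, and reads shared between copies could be split by the counting.

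**Figure D2:**
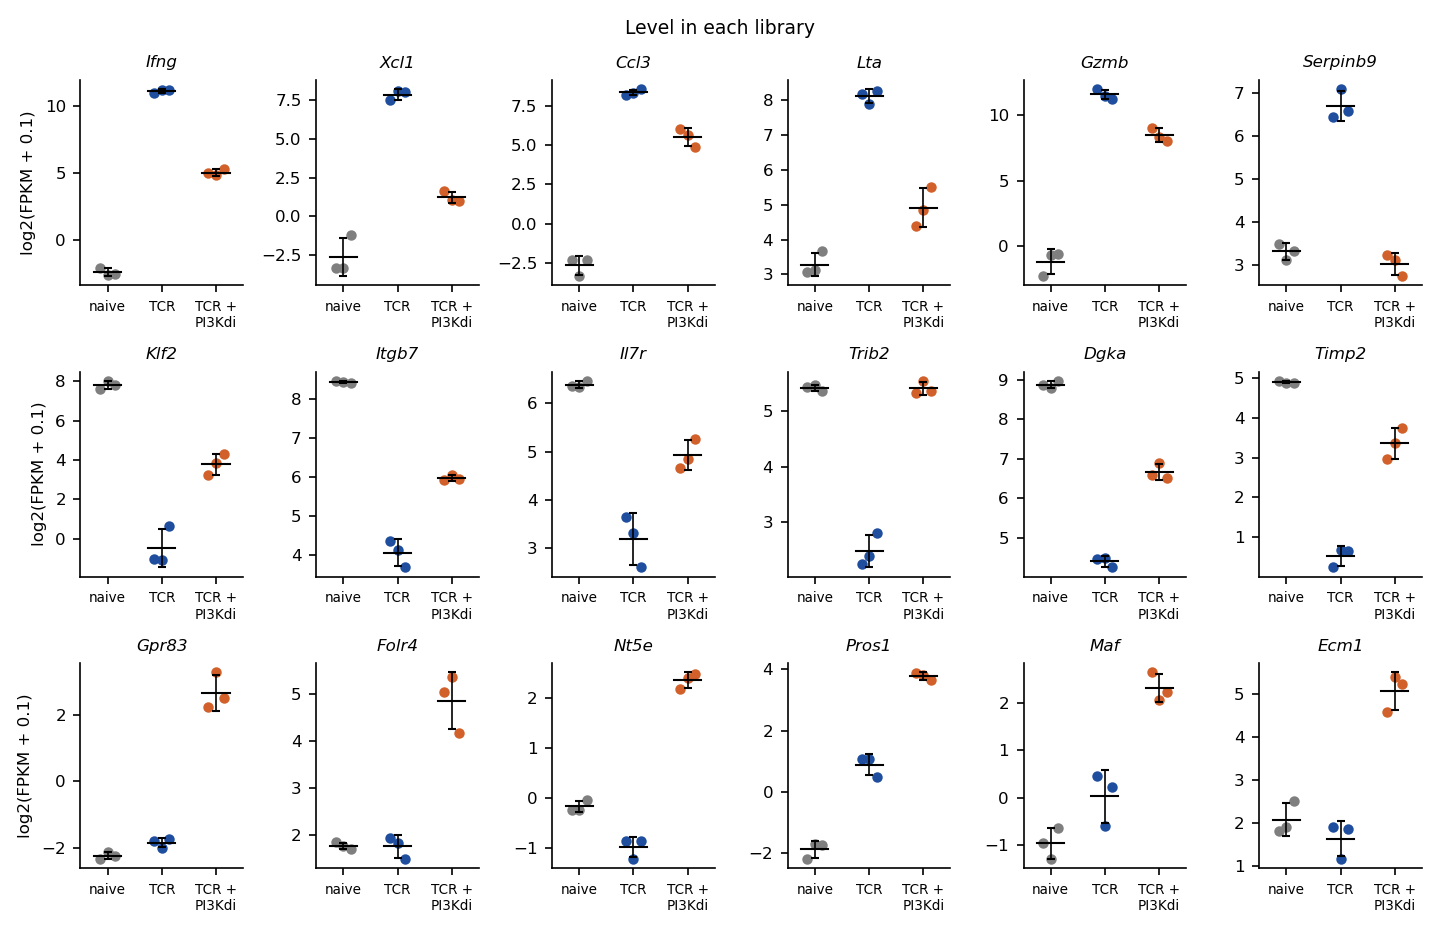
Level of 18 mRNA in each library as log2(FPKM + 0.1) on the y axis, with the 3 naïve (grey), 3 TCR (blue) and 3 TCR + PI3Kdi (orange) libraries side by side and a separate scale in each panel. Bars are the mean and SD of the 3 libraries. In the top row the inhibitor libraries lie below the TCR libraries, in the middle row between the TCR and naïve libraries or, for Trib2, at the naïve level, and in the bottom row above both other groups.

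Known FOXO1 targets were among the mRNA that were higher with PI3Kdi. In a list of 26 known FOXO1 target genes, 4 were higher and none was lower (median log2 fold change 0.37), beside 3.04% and 2.1% of all mRNA. With a 1.5-fold limit 7 were higher and 2 lower. Klf2, a transcription factor that maintains quiescence and lymphocyte trafficking, was at 226 FPKM in naïve cells, at 0.39, 0.38 and 1.46 FPKM in TCR libraries and at 9.33, 14.3 and 19.5 FPKM with PI3Kdi (log2 fold change 4.28 ± 0.40, adjusted p = 5.9e-05). Its inhibitor libraries stayed well below the naïve level. Il7r, the receptor chain for the survival cytokine IL-7, was at 12.4, 9.82 and 5.94 FPKM without and 25.3, 28.7 and 38.3 FPKM with PI3Kdi (log2 fold change 1.74 ± 0.23, adjusted p = 0.00048). Pik3ip1, a transmembrane inhibitor of PI3K, was higher with PI3Kdi (0.75, 0.92 and 0.79 against 2.14, 3.53 and 6.39 FPKM, log2 fold change 2.03 ± 0.29, adjusted p = 0.00094) but remained low beside 61.7 FPKM in naïve cells. Slamf6 was not called (log2 fold change 1.23 ± 0.43, adjusted p = 0.075) but passed with the replicate number as a block (adjusted p = 0.021). Other members did not follow: S1pr1, the receptor through which T cells leave lymph nodes, was at 5.44, 2.76 and 3.16 FPKM without and 2.18, 3.8 and 5.89 FPKM with PI3Kdi, against 237 FPKM in naïve cells (log2 fold change 0.01 ± 0.32, adjusted p = 0.98), and Ccr7 was 1.5-fold higher with PI3Kdi (log2 fold change 0.59 ± 0.11, adjusted p = 0.0053), within the 2-fold limit.

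Among 31 homing and adhesion receptor genes, 5 were higher and 3 lower. Among the higher genes were the gut homing receptor Ccr9, the integrin chain Itgb7, S1pr4 and Cxcr3. S1pr4 was at a log2 of 0.98 without replicate 2, and with a pseudocount of 1 Ccr9 was at 0.75 and S1pr4 at the 2-fold limit. Itgb7, which pairs with α4 and αE integrins, was at 20.5, 17.4 and 12.7 FPKM without and 60.1, 66.3 and 61.1 FPKM with PI3Kdi (log2 fold change 1.91 ± 0.14, adjusted p = 1.2e-05), and its naïve mean was 345 FPKM. Cxcr3, a receptor for inflammatory chemokines, was above the naïve mean of 9.78 FPKM in all inhibitor libraries (16.3, 22.2 and 19.3 FPKM) and below it in all TCR libraries (7.81, 5.59 and 6.62 FPKM, log2 fold change 1.52 ± 0.14, adjusted p = 6.1e-05). In the other direction, the hyaluronan receptor Cd44, a classical marker of antigen-experienced T cells, was at 46.2, 41.5 and 47.1 FPKM without and 8.34, 9.67 and 13.6 FPKM with PI3Kdi (log2 fold change -2.11 ± 0.15, adjusted p = 1.2e-05), close to the naïve mean of 7.56 FPKM. Ccr8 (log2 fold change -2.87 ± 0.34, adjusted p = 0.00026) and Cxcr5 (log2 fold change -1.21 ± 0.21, adjusted p = 0.0027; log2 of -0.84 with a pseudocount of 1) were the other lower genes.

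Genes of antigen receptor signalling were called in both directions. Of 39 genes of the TCR complex and its proximal signalling, 4 were higher and 2 lower. Dgka, a kinase that removes diacylglycerol and so limits RAS and PKC signalling, was at 22.2, 22.4 and 19 FPKM in TCR libraries and 97, 119 and 91 FPKM with PI3Kdi (log2 fold change 2.26 ± 0.11, adjusted p = 1.4e-06), against 470.0 FPKM in naïve cells. Sla, an adaptor that lowers surface TCR, was at 18.4, 21.2 and 19.1 FPKM without and 86.7, 90.9 and 47.2 FPKM with PI3Kdi (log2 fold change 1.88 ± 0.20, adjusted p = 0.00014). The phosphatase Ptpn22 and the TEC family kinase Txk were the other higher members (log2 fold change 1.24 ± 0.13, adjusted p = 0.00014 and log2 fold change 1.17 ± 0.14, adjusted p = 0.00027). Sh2d1a, the adaptor SAP of SLAM family receptors, was lower (46.5, 83.4 and 72.5 against 8.43, 9.97 and 13.2 FPKM, log2 fold change -2.65 ± 0.24, adjusted p = 4.1e-05) and lay below its naïve mean of 35.6 FPKM in every inhibitor library. Trat1 was also called lower, with overlapping groups (log2 fold change -1.64 ± 0.38, adjusted p = 0.013; adjusted p = 0.22 without replicate 2). Cd3e, Cd8a and Cd247 were within 2-fold.

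Of 23 genes for PI3K subunits and lipid phosphatases, 2 were higher, Pik3ip1 and Inpp4b, and none was lower, beside 3.04% and 2.1% of all mRNA. Inpp4b, a phosphatase acting on PI(3,4)P2, was at 5.96, 11 and 14.3 FPKM without and 25.4, 31.5 and 29.4 FPKM with PI3Kdi (log2 fold change 1.54 ± 0.25, adjusted p = 0.0018), with an adjusted p of 0.056 without replicate 2. The mRNA of the inhibitor's target, Pik3cd, was 1.42-fold higher with PI3Kdi (84.1, 93.9 and 109 against 119, 140.4 and 148 FPKM, log2 fold change 0.50 ± 0.12, adjusted p = 0.013), which is within the 2-fold limit. Pik3r1 was not called (log2 fold change 0.01 ± 0.13, adjusted p = 0.98), nor were the pathway nodes Akt1 (log2 fold change -0.24 ± 0.08, adjusted p = 0.068) and Foxo1 (log2 fold change -0.20 ± 0.09, adjusted p = 0.13). Of the 33 AKT, mTOR and FOXO nodes 3 were lower, namely Trib1, Sesn2 and Eif4ebp1, beside 2.1% of all mRNA. Sesn2 and Eif4ebp1 are counted again in the ATF4 and amino acid stress list below. Sesn2 and Eif4ebp1 lost the call without replicate 2 (adjusted p = 0.13 and 0.15), Sesn2 also without replicate 3 (adjusted p = 0.051), Eif4ebp1 differed by a log2 of -0.88 without replicate 1, and Trib1 by -0.99 with a pseudocount of 1.

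Several of the largest rises were in mRNA that were low in both naïve and TCR activated cells. Gpr83, a G protein-coupled receptor known from regulatory T cells, had the largest rise by the rule used for naming genes (0.19, 0.15 and 0.2 FPKM against 4.59, 9.6 and 5.53 FPKM, naïve mean 0.113 FPKM, log2 fold change 4.51 ± 0.26, adjusted p = 4.4e-06). Folr4, the folate receptor family member FR4, was at 3.73, 3.46 and 2.7 FPKM without and 32.5, 40.5 and 17.9 FPKM with PI3Kdi, and its naïve mean was 3.3 FPKM (log2 fold change 3.10 ± 0.25, adjusted p = 1.9e-05). Nt5e, encoding the ecto-enzyme CD73 that makes adenosine, was at 0.45, 0.33 and 0.45 FPKM without and 4.39, 5.12 and 5.48 FPKM with PI3Kdi (log2 fold change 3.33 ± 0.18, adjusted p = 2.1e-06, naïve mean 0.79 FPKM). In all of these the lowest inhibitor library was above the highest TCR library, as also held for 18.1% of all mRNA. FR4 and CD73 are otherwise known as surface markers of anergic and regulatory CD4+ T cells. The summed level of the CD4 T cell and Treg markers in the table (3 of 4) was 2.03 to 2.26 FPKM without and 3.11 to 3.79 FPKM with PI3Kdi. Of these markers Zbtb7b and Ikzf2 were not called (log2 fold change 0.68 and 0.49), and the remaining marker of the sum is not reported here. The part of such cells in these differences was not tested. Ecm1, a secreted matrix protein, went from 3.62, 2.13 and 3.5 to 23.8, 42.3 and 37.6 FPKM (log2 fold change 3.44 ± 0.27, adjusted p = 1.5e-05), and Pros1, the anticoagulant protein S and a ligand of TAM receptors, from 2.02, 2.01 and 1.3 to 14.6, 13.9 and 12.3 FPKM (log2 fold change 2.89 ± 0.21, adjusted p = 1.1e-05). Socs2, a feedback inhibitor of cytokine signalling, was at 3.77, 3.07 and 5.49 FPKM without and 19.1, 25 and 40.4 FPKM with PI3Kdi (log2 fold change 2.72 ± 0.28, adjusted p = 0.00011), against 0.0567 FPKM in naïve cells. It was the only higher member of 26 JAK-STAT and SOCS genes, of which Stat5a was the only lower member (log2 fold change -1.41 ± 0.14, adjusted p = 9.2e-05).

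Other large rises were in genes that naïve cells also expressed. The pseudokinase gene Trib2 was at 4.64, 5.13 and 6.88 FPKM in TCR libraries and 39.9, 46.7 and 41.1 FPKM with PI3Kdi (log2 fold change 2.93 ± 0.13, adjusted p = 1.2e-06), and the naïve mean was 42.9 FPKM. Timp2, an inhibitor of matrix metalloproteinases, was at 1.08, 1.5 and 1.47 FPKM without and 7.65, 10.3 and 13.2 FPKM with PI3Kdi (log2 fold change 2.83 ± 0.19, adjusted p = 6.9e-06, naïve mean 29.6 FPKM), and Slfn1, a Schlafen family gene of quiescent T cells, was at 2.23, 3.14 and 5.97 FPKM without and 12.6, 25.2 and 35.6 FPKM with PI3Kdi (log2 fold change 2.66 ± 0.37, adjusted p = 0.00072, naïve mean 113 FPKM). Tnfrsf26, a TNF receptor family gene, rose by a log2 of 3.12 and the water and glycerol channel Aqp3 by 2.56. Of 26 G1 and quiescence genes 4 were higher, the translation inhibitor Pdcd4 (log2 fold change 1.86 ± 0.22, adjusted p = 0.00027), Tsc22d3 (log2 fold change 2.06 ± 0.32, adjusted p = 0.0015) and the RNA-binding mRNA decay factors Zfp36l1 (log2 fold change 1.24 ± 0.15, adjusted p = 0.00029) and Zfp36 (log2 fold change 1.13 ± 0.11, adjusted p = 6.1e-05), while the cell cycle inhibitor Cdkn1a was lower (log2 fold change -1.66 ± 0.35, adjusted p = 0.0086; adjusted p = 0.065 without replicate 3). The fold of Zfp36 was a log2 of 0.99 without replicate 2.

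GIMAP genes encode GTPases that support lymphocyte survival, and they lie together on chromosome 6 (mm10, from Gimap8 at chr6:48647186-48660875 to Gimap3 at chr6:48764464-48770851). All 8 in the table were above 0 in log2 fold change with groups that did not overlap, against 18.1% higher among all mRNA, and 4 were called higher (median 1.03). Gimap7 was at 19.9, 19.3 and 14.1 FPKM without and 68.4, 71.2 and 49.7 FPKM with PI3Kdi (log2 fold change 1.82 ± 0.16, adjusted p = 3.1e-05), Gimap3 at 70.2, 66.7 and 64.7 FPKM without and 178, 203 and 166 FPKM with PI3Kdi (log2 fold change 1.43 ± 0.09, adjusted p = 6.6e-06) and Gimap4 at 94.2, 94.7 and 88.1 FPKM without and 230.1, 212 and 205 FPKM with PI3Kdi (log2 fold change 1.22 ± 0.08, adjusted p = 6.9e-06). Gimap9 was the fourth (log2 fold change 1.09 ± 0.10, adjusted p = 4.3e-05). The naïve mean was above the inhibitor libraries for Gimap3 (378 FPKM) and Gimap4 (390.4 FPKM), but not for Gimap7 (44.8 FPKM). The 4 uncalled members ranged down to a log2 of 0.30. The counts of called members ranged from 4 to 5 when 1 replicate was left out.

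The list with the highest median was that of the interferon-inducible GTPases, the guanylate-binding proteins (Gbp) and immunity-related GTPases (Irg and relatives) that attack the vacuoles of intracellular pathogens and are classical targets of interferon-γ. Of the 20 listed 16 were higher and none was lower (median log2 fold change 1.29), and for 15 the groups did not overlap, against 18.1% higher among all mRNA. This stood beside the 67.5-fold lower Ifng mRNA in the same libraries. Gbp2 (mm10, chr3:142620663-142638008) was at 38.7, 36 and 82.9 FPKM in TCR libraries and 469, 683 and 799 FPKM with PI3Kdi, a 13-fold difference (log2 fold change 3.70 ± 0.28, adjusted p = 1.5e-05), and the inhibitor libraries were above the naïve mean of 67.5 FPKM. Iigp1 was at 5.91, 7.57 and 13.5 FPKM without and 28.7, 32.9 and 39.9 FPKM with PI3Kdi (log2 fold change 1.97 ± 0.25, adjusted p = 0.00039), and Ifi47 at 42.3, 69.2 and 83.4 FPKM without and 147, 188 and 220.0 FPKM with PI3Kdi (log2 fold change 1.54 ± 0.23, adjusted p = 0.0012). Gbp2 thus differed by more than any other member, and the other called members by a log2 of 1.01 to 1.97. Gbp7 was at 3.66, 2.94 and 4.55 FPKM without and 9.13, 9.46 and 12.7 FPKM with PI3Kdi (log2 fold change 1.47 ± 0.17, adjusted p = 0.00024) and Gbp5 at 28.8, 19.2 and 26.3 FPKM without and 48.7, 64.6 and 88.1 FPKM with PI3Kdi (log2 fold change 1.41 ± 0.21, adjusted p = 0.0013). Igtp, already at 138, 129 and 139 FPKM without PI3Kdi, was at 229.7, 289 and 322 FPKM with it (log2 fold change 1.03 ± 0.11, adjusted p = 0.00014), and Irgm1 was at 28.2, 40.9 and 47.6 FPKM without and 69.5, 85.8 and 86 FPKM with PI3Kdi (log2 fold change 1.07 ± 0.17, adjusted p = 0.0016). The uncalled members were Gbp9, Gbp10, Gm4951 and Irgc1. Without replicate 2 the count was 6 of 20, with Gbp5 at an adjusted p of 0.054, Irgm1 at 0.055 and Igtp at a log2 of 0.97. Igtp was at 0.95 without replicate 3 and Irgm1 at 0.96 without replicate 1. Several of these genes share sequence with neighbours (Igtp with Irgm2, Gbp4 with Gbp8 and Gbp9, Tgtp1 with Tgtp2), so their single values are less certain. How far Gbp2 resembles other family members in sequence was not assessed.

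**Figure D3:**
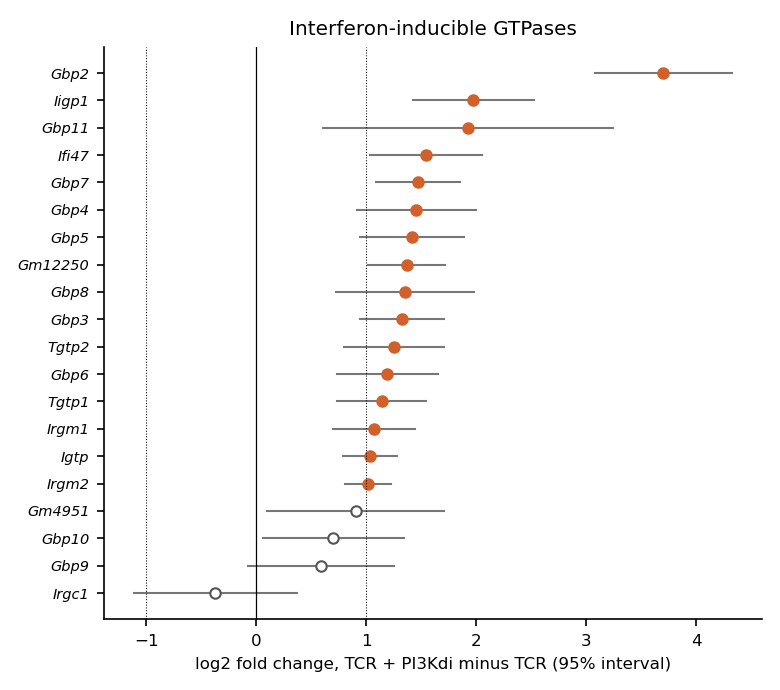
Log2 fold change of TCR + PI3Kdi minus TCR on the x axis for the 20 interferon-inducible GTPases, with 95% confidence intervals from limma. Filled points were called higher (16) and open points were not called. Dotted lines mark 2-fold, and Gbp2, at 3.70, stands to the right of the others.

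The promoters of this group are shown because its members moved together. RefSeq promoter windows (build GRCm38.p6, 250 bases before to 50 bases after the start of transcription) were at hand for 11 of the 20 genes and for 8404 of all genes tested. They were searched on both strands for the gamma-activated site letters TTCNNNGAA and for the interferon-stimulated response element core, which is GAAA, any 2 bases and GAAA. The core was found in 10 of the 11 (90.9%) and in 3.76% of all genes with a window, and the gamma-activated site letters in 7 of the 11 (63.6%) and in 8.5% of all. The genes were listed for being interferon-inducible, so high shares follow from membership, whatever PI3Kdi did. Nor are the 11 windows independent: those of Igtp and Irgm2 share the stretch with the matches, as do those of Tgtp1 and Tgtp2. The 13 matches to the core began 24 to 165 bases before the start of transcription, and none overlapped a match to the other motif. The Ifi47 window held neither. In the 5 windows below, read 5′ to 3′ on the gene's strand, capitals mark both motifs.
Gbp2 (chr3:142620413-142620712, + strand): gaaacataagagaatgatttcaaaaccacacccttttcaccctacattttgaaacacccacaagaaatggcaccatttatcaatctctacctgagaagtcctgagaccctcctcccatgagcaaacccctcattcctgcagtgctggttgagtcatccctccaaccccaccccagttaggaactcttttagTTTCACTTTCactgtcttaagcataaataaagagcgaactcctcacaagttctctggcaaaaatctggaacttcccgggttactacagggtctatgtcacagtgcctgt
Gbp5 (chr3:142496684-142496983, + strand): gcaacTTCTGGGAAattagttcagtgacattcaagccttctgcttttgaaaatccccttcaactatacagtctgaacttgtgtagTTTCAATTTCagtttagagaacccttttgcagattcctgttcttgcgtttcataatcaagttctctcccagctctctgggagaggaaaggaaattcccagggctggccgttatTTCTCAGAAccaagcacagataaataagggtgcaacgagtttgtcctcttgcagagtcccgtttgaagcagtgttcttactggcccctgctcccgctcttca
Gbp7 (chr3:142530086-142530385, + strand): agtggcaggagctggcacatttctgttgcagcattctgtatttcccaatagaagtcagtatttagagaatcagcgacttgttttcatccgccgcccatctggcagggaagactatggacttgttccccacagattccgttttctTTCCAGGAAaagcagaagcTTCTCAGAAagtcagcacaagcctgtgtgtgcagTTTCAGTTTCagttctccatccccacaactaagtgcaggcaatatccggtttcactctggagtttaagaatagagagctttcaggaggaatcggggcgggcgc
Igtp (chr11:58199306-58199605, + strand): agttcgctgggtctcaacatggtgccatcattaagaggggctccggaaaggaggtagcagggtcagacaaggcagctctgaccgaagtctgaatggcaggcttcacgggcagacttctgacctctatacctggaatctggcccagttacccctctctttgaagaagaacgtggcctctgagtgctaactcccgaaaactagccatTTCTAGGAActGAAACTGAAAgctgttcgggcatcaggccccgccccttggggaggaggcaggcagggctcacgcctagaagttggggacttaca
Irgm1 (chr11:48871371-48871670, - strand): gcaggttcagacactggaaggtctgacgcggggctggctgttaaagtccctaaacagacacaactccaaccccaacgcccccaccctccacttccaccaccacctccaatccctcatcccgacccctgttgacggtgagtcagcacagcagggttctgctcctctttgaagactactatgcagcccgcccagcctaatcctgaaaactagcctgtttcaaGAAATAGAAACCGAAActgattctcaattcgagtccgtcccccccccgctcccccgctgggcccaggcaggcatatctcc

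Gbp2, the member with the largest difference, had the core once and no gamma-activated site letters in its window, whereas Gbp5 and Gbp7 had 1 core and 2 gamma-activated site matches each, Igtp 1 of each, and Irgm1 2 overlapping cores. Among all 247 higher genes with a window 8.91% held the core, and among the 172 lower genes 6.4%. Without the GTPases the share among higher genes was 5.08%, under that of the lower genes. For the gamma-activated site letters the shares were 14.6% and 9.3%, and 12.3% of higher genes without the GTPases. The forkhead letters GTAAACA, bound by FOXO factors, were in 7.69% of higher, 3.49% of lower and 3.06% of all genes with a window, and in 4 of the 22 FOXO1 target genes with a window. The AP-1 letters TGANTCA were in 12.6% of higher, 15.1% of lower and 5.68% of all. These are counts of letters in short windows and were not tested.

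Genes of the wider interferon response were called in both directions. Of 56 genes known mainly as type I interferon response genes 4 were higher and 6 lower (median log2 fold change -0.06), beside 3.04% and 2.1% of all mRNA. The higher ones were Slfn1, Ly6a (179, 163 and 131 against 423, 420.3 and 292 FPKM, log2 fold change 1.25 ± 0.17, adjusted p = 0.00063), Slfn3 (log2 fold change 1.17 ± 0.20, adjusted p = 0.0025) and Pml (log2 fold change 1.10 ± 0.13, adjusted p = 0.00025). Among the lower ones were Ly6c2 (5.17, 4.19 and 7.08 against 1.45, 2.33 and 1.75 FPKM, log2 fold change -1.51 ± 0.23, adjusted p = 0.0012) and, at low levels, Ifitm2 (log2 fold change -1.75 ± 0.40, adjusted p = 0.013) and Isg15 (log2 fold change -1.53 ± 0.46, adjusted p = 0.043). Ifitm2 lost the call without replicate 2 (adjusted p = 0.15) or 3 (0.1), Isg15 without any 1 of the replicates (adjusted p = 0.067 to 0.13), and Slfn3 had a log2 of 0.96 without replicate 1 and an adjusted p of 0.05 without replicate 2. Without replicate 2, 3 of the 56 were higher and 3 lower. Ifngr1, a chain of the interferon-γ receptor, was at 23.8, 17.6 and 14.2 FPKM without and 23.6, 27 and 25.6 FPKM with PI3Kdi and not called (log2 fold change 0.48 ± 0.15, adjusted p = 0.051). Of 26 MHC class I presentation genes none was called, with 9 at an unadjusted limma p under 0.05, against 3544 of all 11262 mRNA. With the replicate number as a block, 1 was lower.

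MHC class II genes went apart: 3 of 8 were lower and 1 was higher. Cd74, the invariant chain, was at 17.2, 8.96 and 22.1 FPKM without and 2, 3.57 and 3.8 FPKM with PI3Kdi (log2 fold change -2.29 ± 0.46, adjusted p = 0.0064), and H2-Ab1 (log2 fold change -2.35 ± 0.49, adjusted p = 0.0079) and H2-Aa (log2 fold change -2.17 ± 0.43, adjusted p = 0.0062) were lower too. H2-DMa was higher (5.84, 6.67 and 6.13 against 11.3, 14.6 and 18.8 FPKM, log2 fold change 1.22 ± 0.17, adjusted p = 0.00088). Without replicate 3 the adjusted p of Cd74, H2-Ab1 and H2-Aa was 0.053, 0.052 and 0.073. Mouse T cells make little MHC class II, and the summed B cell markers moved the same way in these libraries (4.92 to 7.82 FPKM without and 3.33 to 4.63 FPKM with PI3Kdi). Dendritic cells also carry MHC class II. The sum of their markers moved the other way (147 to 161 and 166 to 235 FPKM) through Ccr7. The other markers of the list were Cd83 (23.8, 23.9 and 25.4 against 4.1, 4.57 and 9.51 FPKM) and Zbtb46 (0.48, 0.58 and 0.64 against 0.07, 0.16 and 0.14 FPKM). Both were below the TCR libraries in every inhibitor library, as also held for 18.6% of all mRNA. Which cells the Ccr7 and Cd83 mRNA came from cannot be told in these bulk libraries. Summed macrophage markers overlapped between the groups (2.48 to 5.34 and 4.04 to 4.91 FPKM). The part of B cells, dendritic cells and macrophages in the difference was not tested.

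Transcription factors of T cell differentiation changed in both directions, with 7 of 44 higher and 6 lower. Maf, which promotes Il21 expression in helper cells, was at 1.27, 0.56 and 1.07 FPKM in TCR libraries and 6.11, 4.06 and 4.53 FPKM with PI3Kdi (log2 fold change 2.27 ± 0.29, adjusted p = 0.00039, naïve mean 0.423 FPKM), and Tox2 at 0.54, 0.25 and 0.37 FPKM without and 3.17, 2.55 and 2.28 FPKM with PI3Kdi (log2 fold change 2.54 ± 0.39, adjusted p = 0.0014; adjusted p = 0.067 with a pseudocount of 0.01). Ets1, a factor of resting T cells, was at 38.7, 41.2 and 46.5 FPKM without and 104, 112 and 107 FPKM with PI3Kdi (log2 fold change 1.35 ± 0.08, adjusted p = 4.6e-06, naïve mean 274 FPKM), and Ikzf3 (Aiolos) at 34.5, 33.7 and 37 FPKM without and 94, 97.9 and 76.7 FPKM with PI3Kdi (log2 fold change 1.34 ± 0.11, adjusted p = 1.8e-05). In each case the groups did not overlap, as also held for 18.1% of all mRNA in this direction. Of the lower factors Zbtb32 was at 235, 193 and 176 FPKM without and 52.9, 45.2 and 42.5 FPKM with PI3Kdi (log2 fold change -2.10 ± 0.13, adjusted p = 4.6e-06), Bhlhe40, which promotes Ifng expression, at 132, 92.2 and 93.3 FPKM without and 31.9, 22.6 and 24.3 FPKM with PI3Kdi (4-fold lower, SE 0.27 on the log2 scale, adjusted p = 0.00057), and the AP-1 family member Batf3 at 89.2, 55.6 and 65 FPKM without and 21.8, 13.1 and 22.6 FPKM with PI3Kdi (log2 fold change -1.88 ± 0.22, adjusted p = 0.00026). Zeb2, a factor of terminal effector cells, was lower from a low level (1.86, 1.72 and 1.31 against 0.19, 0.16 and 0.13 FPKM, log2 fold change -2.73 ± 0.23, adjusted p = 2.3e-05). These 4 were under 1 FPKM in the naïve mean. Of the remaining lower factors, the T-box factor Eomes was at 12.4, 14.8 and 23.8 FPKM without and 4.03, 5.69 and 8.24 FPKM with PI3Kdi (log2 fold change -1.50 ± 0.26, adjusted p = 0.0031; adjusted p = 0.07 without replicate 2), against 14.5 FPKM in naïve cells, and Runx2 at 1.45, 1.31 and 1.78 FPKM without and 0.23, 0.45 and 0.44 FPKM with it (log2 fold change -1.80 ± 0.24, adjusted p = 0.00048, naïve mean 1.13 FPKM; log2 of -0.87 with a pseudocount of 1). Among 11 KLF genes, Klf2 and Klf9 (log2 fold change 1.38 ± 0.22, adjusted p = 0.0019) were higher, and Klf6 (48.8, 49.7 and 47.1 against 12.9, 13.7 and 13.5 FPKM, log2 fold change -1.85 ± 0.12, adjusted p = 7.7e-06) and Klf7 (log2 fold change -1.20 ± 0.17, adjusted p = 0.00088; log2 of -0.96 with a pseudocount of 1) lower.

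Signal-responsive genes also divided. Of 38 immediate early and MAPK feedback genes 8 were lower and 1 higher. All of the NR4A orphan nuclear receptors, which antigen receptor signals induce, were lower: Nr4a3 was at 34.1, 37 and 50.8 FPKM without and 5.75, 9.82 and 6.45 FPKM with PI3Kdi (log2 fold change -2.47 ± 0.29, adjusted p = 0.00027), Nr4a2 at 10.3, 6.17 and 11.9 FPKM without and 2.19, 2.28 and 1.7 FPKM with PI3Kdi (log2 fold change -2.11 ± 0.34, adjusted p = 0.0017) and Nr4a1 at 38.5, 34.3 and 80.1 FPKM without and 19.6, 22.4 and 22.9 FPKM with PI3Kdi (log2 fold change -1.13 ± 0.26, adjusted p = 0.013). Nr4a1 lost the call without any 1 replicate, with an adjusted p of 0.061 without replicate 1, 0.051 without replicate 2 and a log2 of -0.79 without replicate 3. The MAPK phosphatase Dusp4 (log2 fold change -2.03 ± 0.32, adjusted p = 0.0017) and the stress factor Atf3 (log2 fold change -1.61 ± 0.20, adjusted p = 0.00033) were lower, and the phosphatase Dusp2 was higher (34.4, 58.1 and 73 against 120.5, 144 and 119 FPKM, log2 fold change 1.27 ± 0.23, adjusted p = 0.0039; adjusted p = 0.079 without replicate 2). Egr1 and Egr2, induced by the RAS and ERK pathway, were not called and had higher means with PI3Kdi (log2 fold change 0.42 ± 0.18, adjusted p = 0.14 and log2 fold change 0.84 ± 0.24, adjusted p = 0.037), so directions differed within the list. In the NF-κB list (28 genes) the subunits Nfkb1 (229.7, 269.5 and 263 against 79.7, 93.1 and 115 FPKM, log2 fold change -1.42 ± 0.12, adjusted p = 3.1e-05), Nfkb2 (log2 fold change -1.12 ± 0.09, adjusted p = 1.6e-05) and Rel (log2 fold change -1.20 ± 0.17, adjusted p = 0.00088) and the adaptor Traf1 (log2 fold change -1.30 ± 0.09, adjusted p = 9.3e-06) were lower, while Malt1 (53.7, 46.8 and 39.1 against 144, 147 and 104 FPKM, 2.82-fold higher, SE 0.14 on the log2 scale, adjusted p = 6.1e-05), which links the TCR to NF-κB, was higher. Rel differed by a log2 of -0.99 without replicate 3. None of 26 NFAT and calcium entry genes was called, with 16 at an unadjusted limma p under 0.05, against 3544 of all 11262 mRNA.

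Receptors for cytokines were mostly within 2-fold, with 2 of 34 subunit genes higher and 4 lower, beside 3.04% and 2.1% of all mRNA. Without replicate 1 only 1 was lower, and without replicate 2 none (0 of 34, by limma). Il2ra, the high-affinity IL-2 receptor chain that activation induces, was at 652, 517 and 501 FPKM without and 558, 529 and 603 FPKM with PI3Kdi, with overlapping groups (log2 fold change 0.03, 95% interval -0.30 to 0.35). The IL-12 receptor chain Il12rb2 was 1.67-fold higher with PI3Kdi (183, 124 and 98.8 against 229.9, 209 and 219 FPKM, log2 fold change 0.74 ± 0.18, adjusted p = 0.018), within the limit. Il6ra was higher (1.3, 1.33 and 1.38 against 4.52, 6.39 and 7.15 FPKM, log2 fold change 2.07 ± 0.16, adjusted p = 1.5e-05, naïve mean 61.5 FPKM). Il18r1 and Il18rap, the IL-18 receptor chains, were called lower (log2 fold change -1.63 ± 0.45, adjusted p = 0.03 and log2 fold change -1.42 ± 0.36, adjusted p = 0.021), but lost the call without replicate 1 (adjusted p = 0.14 and 0.077) or replicate 2 (0.17 and 0.19). Of the inhibitory receptors Btla was higher (29.3, 29.4 and 32.6 against 66.7, 68.2 and 63.5 FPKM, log2 fold change 1.12 ± 0.09, adjusted p = 1.8e-05), and Pdcd1, Lag3 and Ctla4 were not called (log2 fold change -0.50 ± 0.20, adjusted p = 0.12, log2 fold change 0.22 ± 0.28, adjusted p = 0.65 and log2 fold change 0.26 ± 0.53, adjusted p = 0.79). Of the BCL2 family, the survival genes Bcl2l1 (108, 116 and 146 against 34.8, 38 and 59 FPKM, log2 fold change -1.51 ± 0.18, adjusted p = 0.00026) and Bcl2a1d (log2 fold change -3.40 ± 0.45, adjusted p = 0.00051), the latter from a cluster of near-identical copies, were lower. Bcl2 was at the 2-fold limit (16.9, 14.4 and 10.8 against 26.2, 27.4 and 29.7 FPKM, log2 fold change 1.00 ± 0.14, adjusted p = 0.00091) and under it without replicate 3, at a log2 of 0.78.

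Mitosis genes showed small differences, nearly all of one sign. Of 51 mitosis and spindle genes 50 had a log2 fold change below 0, and the groups did not overlap for 38, against 18.6% of all mRNA. The median log2 fold change was -0.57, and 4 passed the 2-fold limit, namely Ube2c (144, 100.2 and 93.3 against 63.7, 37.9 and 57.3 FPKM, log2 fold change -1.09 ± 0.27, adjusted p = 0.019), Hmmr (log2 fold change -1.08 ± 0.19, adjusted p = 0.0034), the kinase Plk1 (69.1, 49 and 45.3 against 32.8, 17.7 and 28.9 FPKM, log2 fold change -1.06 ± 0.23, adjusted p = 0.0092) and Aurka (log2 fold change -1.03 ± 0.18, adjusted p = 0.003). With a pseudocount of 0.01 the adjusted p of Ube2c was 0.33. None of the 4 was called without replicate 2 (adjusted p from 0.063 to 0.17), and 9 members were called without replicate 3. The 50 DNA replication genes in contrast had a median of 0.03, a range from -0.45 to 0.44 and no calls. Of these genes 11 had an unadjusted limma p under 0.05, against 3544 of all 11262 mRNA. Pcna was at 516, 631 and 564 FPKM without and 600.3, 559 and 553 FPKM with PI3Kdi, and Mcm5 at 188, 203 and 212 FPKM without and 225, 213 and 212 FPKM with PI3Kdi. Log2 fold changes were below 0 for 50 of 54 ribosome biogenesis genes (median -0.19) and for 65 of 76 mitochondrial ribosomal protein genes (median -0.16), but neither list had a call, with 25 members of each at an unadjusted p under 0.05. Medians were 0.01 for 79 cytosolic ribosomal protein genes, -0.03 for 76 oxidative phosphorylation subunits and -0.09 for 37 proteasome subunits, again with no call, and 0, 9 and 7 members had an unadjusted p under 0.05. All these counts stand beside the 3544 of 11262 mRNA with such a limma p.

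Sterol and amino acid stress genes mostly had log2 fold changes below 0, and few or none of them met both limits of a call. Of 30 cholesterol synthesis and sterol response genes 27 were below 0 (median -0.44). For 19 the groups did not overlap, against 18.6% lower among all mRNA. None met both the adjusted p and the 2-fold limit, and 21 had an unadjusted limma p under 0.05, against 3544 of all 11262 mRNA. Without replicate 1, 2 were called lower, and without replicate 3, 1 was. Hmgcs1, an early enzyme of the pathway, was at 80.4, 88.1 and 76.6 FPKM without and 57.6, 37.4 and 38.6 FPKM with PI3Kdi (log2 fold change -0.90 ± 0.15, adjusted p = 0.0021), within the 2-fold limit. Of 27 genes of the ATF4 and amino acid stress response 25 were below 0 (median -0.45) and 6 were lower, Sesn2 and Eif4ebp1 among them. With the replicate number as a block 8 were lower, and without replicate 2 only 1. Cth, which makes cysteine from cystathionine, was at 8.1, 3.92 and 3.59 FPKM without and 0.93, 0.39 and 0.52 FPKM with PI3Kdi (log2 fold change -2.87 ± 0.34, adjusted p = 0.00026). Asparagine synthetase, Asns, was at 27.8, 8.97 and 9.98 FPKM without and 8.38, 5.28 and 3.52 FPKM with PI3Kdi (log2 fold change -1.32 ± 0.41, adjusted p = 0.05); it was not called, but was with the replicate block (adjusted p = 0.04). In Cth and Asns the first TCR library was the highest of its group, as it was for Atf4 itself (373, 228 and 254 against 185, 153 and 155 FPKM, log2 fold change -0.77 ± 0.17, adjusted p = 0.0097).

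**Figure D4:**
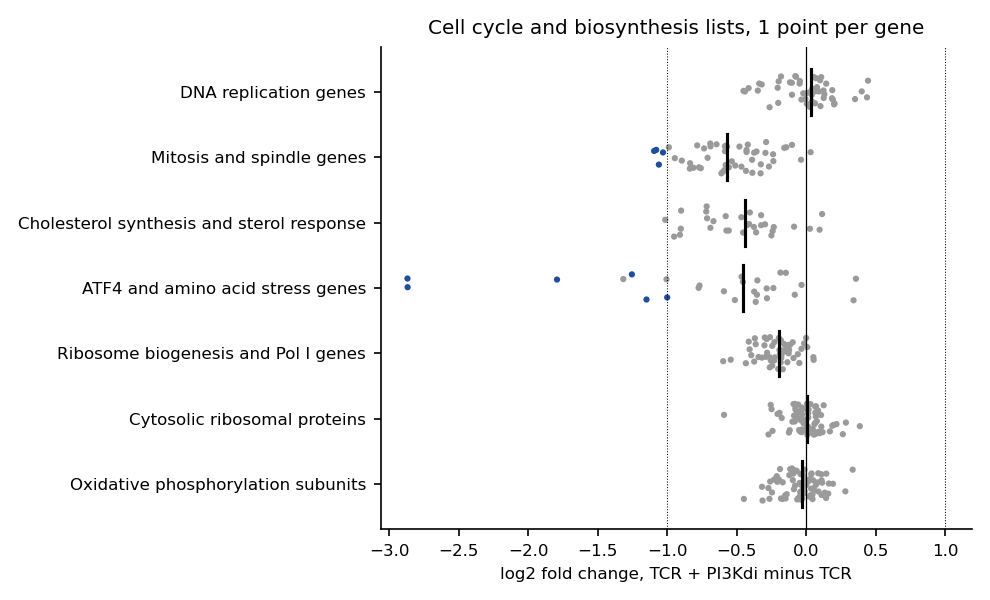
Log2 fold change of TCR + PI3Kdi minus TCR on the x axis for every gene of 7 lists, with 1 point per gene, blue where called lower, and a bar at the list's median. All but 1 of the 51 points of the mitosis list lie to the left of 0 (median -0.57) while those of the DNA replication list are centred at 0.03.

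The lists differed widely in their share of called genes. The shares called higher ranged from none in 17 lists to 16 of 20 among interferon-inducible GTPases, and the shares called lower from none in 16 lists to 6 of 8 among chemokines, beside 3.04% and 2.1% of all mRNA. Chemokines, cytokines, MHC class II genes and mitosis genes had the lowest medians, and interferon-inducible GTPases and GIMAP genes the highest.

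**Figure D5:**
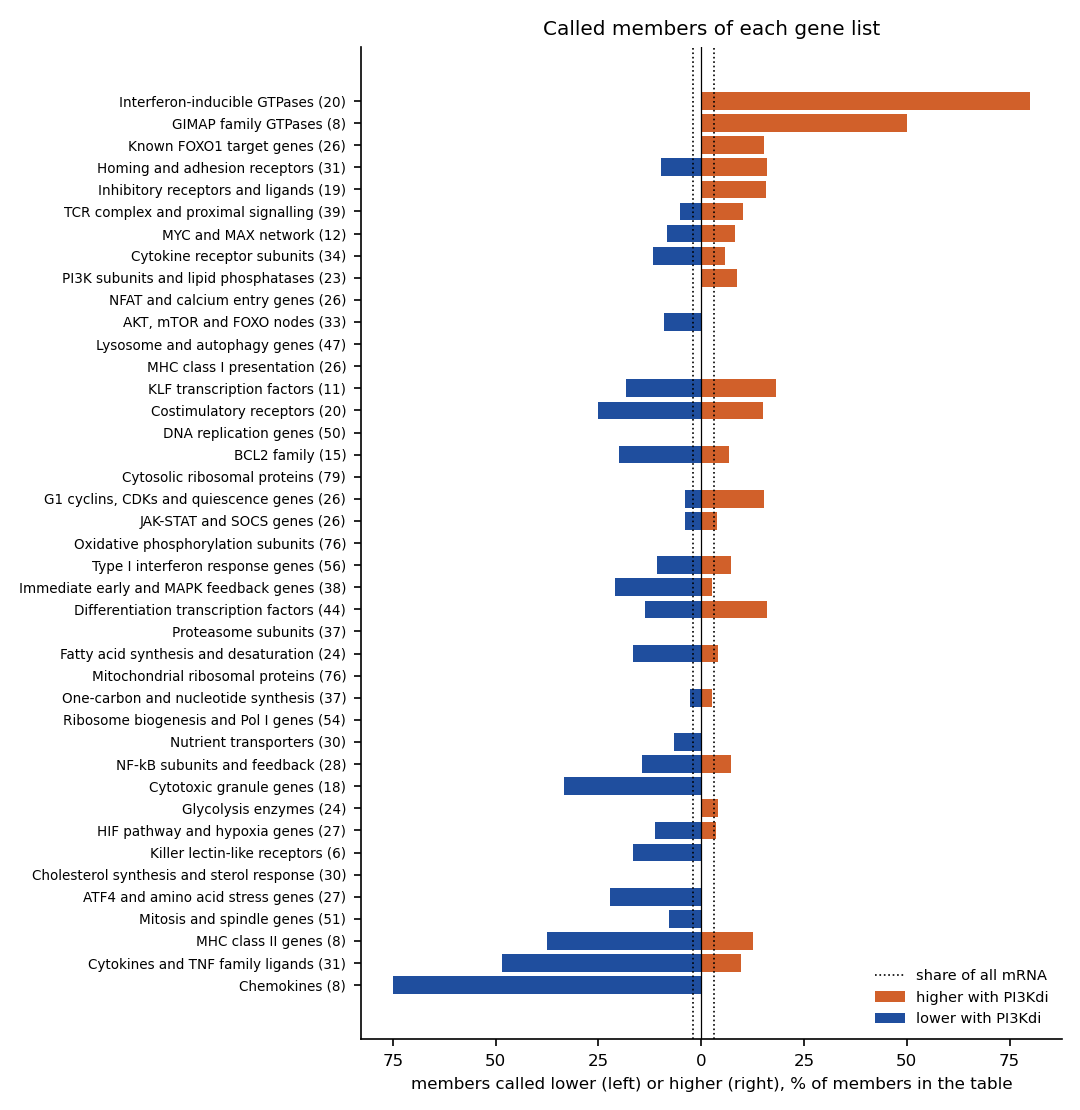
Share of each list's members in the table that were called lower (blue, to the left) or higher (orange, to the right) with PI3Kdi, in percent on the x axis, with the number of members in parentheses and lists ordered by median log2 fold change. Dotted lines mark the shares among all mRNA, 2.1% lower and 3.04% higher. Chemokines and interferon-inducible GTPases stand at the ends.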

How the data were processed

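Per the labels and the study's methods, polyadenylated RNA of sorted cells was made into TruSeq Stranded mRNA libraries and sequenced as 75 bp paired-end reads. The submitters' processing notes name STAR 2.5.2b, Subread 1.5.1, edgeR and the mm10 build. The authors removed low genes, scaled libraries by TMM and deposited FPKM per gene, with exon length from RefSeq. The strand setting of the counting is not given in the sources used here. Blank cells (311 in the 6 activated libraries) were read as 0, and the table of long-term cultured cells was not used.

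The 9 libraries of the table were fitted together on log2(FPKM + 0.1) by group with limma 3.58.1 (R 4.3.3; moderated test, intensity trend, Benjamini-Hochberg adjustment over 11262 mRNA), following the study's thresholds. Errors after ± are standard errors from this fit, with n = 3 libraries per group. On simulated data with 200 changed genes the procedure recovered 97 of 100 genes changed by a log2 of 2 and 100 of 100 changed by 3, with 3 false calls among the unchanged genes. The changed genes all had a TCR mean of at least 1 FPKM, and the noise was normal and independent between libraries, without a pool effect. Smaller changes, which most calls had, and lower mRNA were not simulated, so the recovery does not describe them. Each pool of mice was divided between the conditions, so replicate numbers pair the samples. Same-numbered TCR and TCR + PI3Kdi libraries deviated together from their group means (r = 0.27, 0.2 and 0.51 over 10072 mRNA). Libraries of different number had r from -0.45 to 0.19, the highest for TCR replicate 2 with PI3Kdi replicate 1. Replicate 2 was thus hardly set apart by these values. Members and gene lists were chosen with earlier results of these data known, and no list was tested. Library sizes were estimated from the spacing of low FPKM values and limit the precision of low mRNA.

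Genes named were the 15 largest rises and falls at 5 FPKM or more in the higher group and with 3 concordant pairs, up to 6 called members per list and direction at 1 FPKM or more, preset anchor genes of the lists and genes the study names, from which a selection is given. A few genes are not reported here. The uncalled genes Gbp9, Gbp10, Gm4951 and Irgc1 and genes named for shared sequence or position (such as Gimap8), and the markers Xbp1, Pecam1, Cxcr2, Cd83, Zbtb46, Zbtb7b and Ikzf2, complete counts or sums and were chosen after their values were seen. Coordinates and promoter windows are from RefSeq (GRCm38.p6, the same assembly as mm10). Alternatives tried were other pseudocounts, a level filter, the replicate block, the 6 activated libraries alone, median scaling, no intensity trend, other fold limits and each replicate left out.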

Additional observations from a re-analysis of the deposited data

How the results depend on the processing

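The counts of 342 higher and 237 lower mRNA (579 in all) stayed within 1.5 times under a pseudocount of 0.01, a filter at a mean of 1 FPKM, the fit of the 6 activated libraries, median scaling and no intensity trend. They moved to 170 higher and 141 lower (311 in all) with a pseudocount of 1, to 687 and 433 (1120) with a 1.5-fold limit and to 1053 and 922 (1975) with no fold limit. Leaving out 1 replicate in all groups gave 197 to 345 higher, 126 to 245 lower and 323 to 574 in all, the lowest without replicate 2. The replicate block in the fit gave 347 higher and 244 lower mRNA (591 in all), and 573 of the 579 calls were shared. Among the genes named, the block changed no call other than those of Slamf6, Asns and the marker Cxcr2 (adjusted p = 0.036 with it).

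Of 120 called genes named, 73 kept the call in every refit and none changed sign. The pseudocount of 1 ended 12 of these calls (Aurka, Bcl2, Ccr9, Cxcr5, Irgm2, Isg15, Klf7, Pecam1, Runx2, S1pr4, Trib1 and Zbtb46), the pseudocount of 0.01 ended 4 (Cxcl10, Ifitm2, Tox2 and Ube2c), the fit of the 6 activated libraries 10, no intensity trend 3, and leaving out replicates 1, 2 and 3 ended 10, 35 and 14. Uncalled genes near 0 changed sign when a replicate was left out: the log2 fold change ranged from -0.10 to 0.15 for Il2ra and from -0.06 to 0.64 for Ctla4, both lowest without replicate 3, and was 0.66, -0.20 and -0.42 for S1pr1 without replicates 1, 2 and 3. The causes were not tested. The size of the libraries limits mRNA under 1 FPKM, which made up 60 of the higher and 37 of the lower calls.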
